A study of Mus musculus with 11 samples.

Results

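The interferon regulatory factors are a family of transcription factors, and 8 of its genes, Irf1, Irf2, Irf3, Irf4, Irf5, Irf7, Irf8 and Irf9, were followed here among the 19938 genes measured. They were chosen by name, and where several probe sets carried only that gene's symbol, the brightest on average was read. Expression was measured on 11 arrays of classical dendritic cells (cDCs), the antigen-presenting cells that prime T cells, sorted from spleens of mice on the C57BL/6 background. All groups carried floxed Zeb2, the gene of a zinc-finger repressor. The groups were CD172a+ cDCs of mice labelled Zeb2-deficient, with genotype Zeb2 fl/fl and a CD11c-Cre transgene (4 arrays), CD24+ cDCs of Zeb2 fl/fl control mice without Cre (3 arrays) and CD172a+ cDCs of the same kind of control mice (4 arrays). CD11c-Cre acts in cells expressing CD11c, which cDCs of both subsets do, and no CD24+ cDCs of labelled Zeb2-deficient mice were among the samples. The labels used here give no ages. All values below are log2 expression values, and 1 unit is a doubling.

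Interferon regulatory factors share an amino-terminal DNA-binding domain that recognises GAAA repeats, as found in interferon-stimulated response elements (ISREs). IRF3, IRF5 and IRF7 wait in the cytoplasm until sensors of microbial nucleic acid lead to their phosphorylation, and then switch on interferon genes, while IRF9 binds DNA within the complex that carries the type I interferon signal to the nucleus. IRF8 and IRF4 bind DNA weakly alone and work with partners such as PU.1, SPIB or BATF and JUN proteins. In mice IRF8 is needed for the CD24+ subset, also called cDC1, and IRF4 serves the CD172a+ subset, also called cDC2.

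The sorted cells carried the markers of their labels. The mean level of 11 cDC1 markers lay between 6.85 and 6.94 in labelled Zeb2-deficient CD172a+ cDCs, between 10.05 and 10.51 in control CD24+ cDCs and between 6.75 and 6.90 in control CD172a+ cDCs, and the mean level of 10 cDC2 markers ran the other way, at 7.42 to 8.16, 5.0 to 5.23 and 7.41 to 8.10 in the same groups. Zeb2 itself measured 8.52, 8.32, 9.07 and 9.24 in the 4 arrays labelled Zeb2-deficient, 5.19, 5.08 and 5.52 in control CD24+ cDCs, and 8.23, 8.23, 8.26 and 8.61 in control CD172a+ cDCs. It was thus not lower in the cells labelled Zeb2-deficient, and the labels do not say whether its probes lie in the deleted stretch, so "labelled Zeb2-deficient" is kept throughout. The arrays also fell into 2 sets that cross the groups, found from the first principal component of the deviations from the group means over all genes, which held 62.1% of their variance. The first set held replicates 1 and 2 of both CD172a+ groups and replicate 1 of the CD24+ group, and the second held the other arrays. Red pulp macrophage markers moved with the sets, with mean levels of 6.91 to 7.21 in the second and 5.79 to 5.82 in the first set in labelled Zeb2-deficient CD172a+ cDCs. They were 5.85 to 5.88 in the second and 5.26 in the first set in control CD24+ cDCs, and 7.15 to 7.25 and 5.80 to 6.0 in control CD172a+ cDCs. Other markers moved too. Monocyte marker means were 7.25 in the second and 6.73 to 6.82 in the first set in labelled Zeb2-deficient CD172a+ cDCs. They were 7.26 to 7.28 and 7.03 in control CD24+ cDCs, and 7.78 to 7.96 and 7.3 to 7.39 in control CD172a+ cDCs. B cell marker means were lower in the second set, at 5.71 to 5.74 and 6.01 to 6.1, 5.07 to 5.22 and 5.24, and 5.35 to 5.36 and 5.52 to 5.6 in the same groups. No label names the sets, and what separates them was not tested.

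Among the family, Irf8 and Irf4 set the cDC subsets apart most widely, and in opposite directions. Their promoters, and that of Irf1, the only other member past the test between subsets, are shown because these are the genes on which the subset comparison turns. Each is the 250 bases before the first base of the gene's most upstream annotated start, from RefSeq on GRCm38.p6, plus strand, at chr8:120736108-120736357 for Irf8, chr13:30748983-30749232 for Irf4 and chr11:53769764-53770013 for Irf1. Capitals mark matches to the GAS element bound by STAT dimers (TTCNNNGAA) or to the NF-kB element (GGGA, 4 free bases and CC), searched on both strands.
Irf8: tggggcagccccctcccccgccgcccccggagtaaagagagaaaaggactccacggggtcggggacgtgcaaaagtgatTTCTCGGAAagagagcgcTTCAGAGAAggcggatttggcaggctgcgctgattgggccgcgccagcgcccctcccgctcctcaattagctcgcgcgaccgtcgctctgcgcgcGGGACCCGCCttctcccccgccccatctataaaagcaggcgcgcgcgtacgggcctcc
Irf4: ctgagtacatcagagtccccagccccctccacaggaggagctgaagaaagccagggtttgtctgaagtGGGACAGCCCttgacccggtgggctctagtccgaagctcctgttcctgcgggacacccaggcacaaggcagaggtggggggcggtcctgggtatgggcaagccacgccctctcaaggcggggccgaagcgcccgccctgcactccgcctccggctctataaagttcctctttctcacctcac
Irf1: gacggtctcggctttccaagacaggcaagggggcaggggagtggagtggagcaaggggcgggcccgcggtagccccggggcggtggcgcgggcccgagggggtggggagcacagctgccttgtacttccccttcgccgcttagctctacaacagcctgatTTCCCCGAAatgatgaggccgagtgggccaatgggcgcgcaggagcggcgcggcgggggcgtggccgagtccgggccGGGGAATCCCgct
The Irf8 window held 2 GAS matches, 171 and 153 bases before the start, and 1 NF-kB match. The Irf1 window held 1 GAS match, 90 bases before the start, and 1 NF-kB match 13 bases before it, and the Irf4 window held an NF-kB match alone, 182 bases before the start. Over 32851 promoter windows of this length, 7.02% held a GAS match and 17.6% an NF-kB match. None of the 3 windows held the ISRE core (GAAA, 2 free bases and GAAA, 2.98% of windows), the ETS-IRF composite core (GGAA, 2 free bases and GAAA, 2.30%), an AP-1 site (TGANTCA, 6.75%) or the CACCTG box that Zeb proteins bind (17.2%). A CACCTG box, a form of the general E-box CANNTG found in 66.2% of windows, was present in the windows of Irf3 and Irf9 and in that of a downstream start of Irf8. The ISRE core was found in the family only before Irf2, where it overlapped an ETS-IRF core. All 8 members had a window, with 11 windows in all, and a match is a description of letters and not evidence of binding.

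Irf8 lies at chr8:120736358-120756694 and was read by a single probe set. It measured 6.30, 6.16, 6.42 and 6.72 in labelled Zeb2-deficient CD172a+ cDCs, 10.67, 8.85 and 8.72 in control CD24+ cDCs, and 5.91, 5.74, 6.80 and 6.94 in control CD172a+ cDCs. Every CD24+ array was above every CD172a+ array, and both CD172a+ groups overlapped. Control CD24+ cDCs exceeded control CD172a+ cDCs by 3.07 ± 0.45 (SE), an 8.38-fold difference with an adjusted p of 0.00146 in limma, and with a 95% interval from 2.08 to 4.06. Replicate 1 of the CD24+ group weighed on this size, and without it the difference was 2.44.

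Irf4, at chr13:30749233-30766981, ran the opposite way. It measured 9.74, 9.67, 8.72 and 9.05 in labelled Zeb2-deficient CD172a+ cDCs, 4.92, 6.13 and 6.17 in control CD24+ cDCs, and 9.45, 9.27, 8.90 and 8.15 in control CD172a+ cDCs. The lowest CD172a+ array stood well above the highest CD24+ array. Irf4 was lower in control CD24+ than in control CD172a+ cDCs, with a difference of -3.21 ± 0.389 SE (9.23-fold, limma adjusted p of 0.000386). In bulk RNA of sorted cells, fewer cells with a transcript and less transcript per cell cannot be told apart. The plot of Irf8 against Irf4 shows the CD24+ arrays at 1 end and all CD172a+ arrays, of either genotype, at the other.

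**Figure D1:**
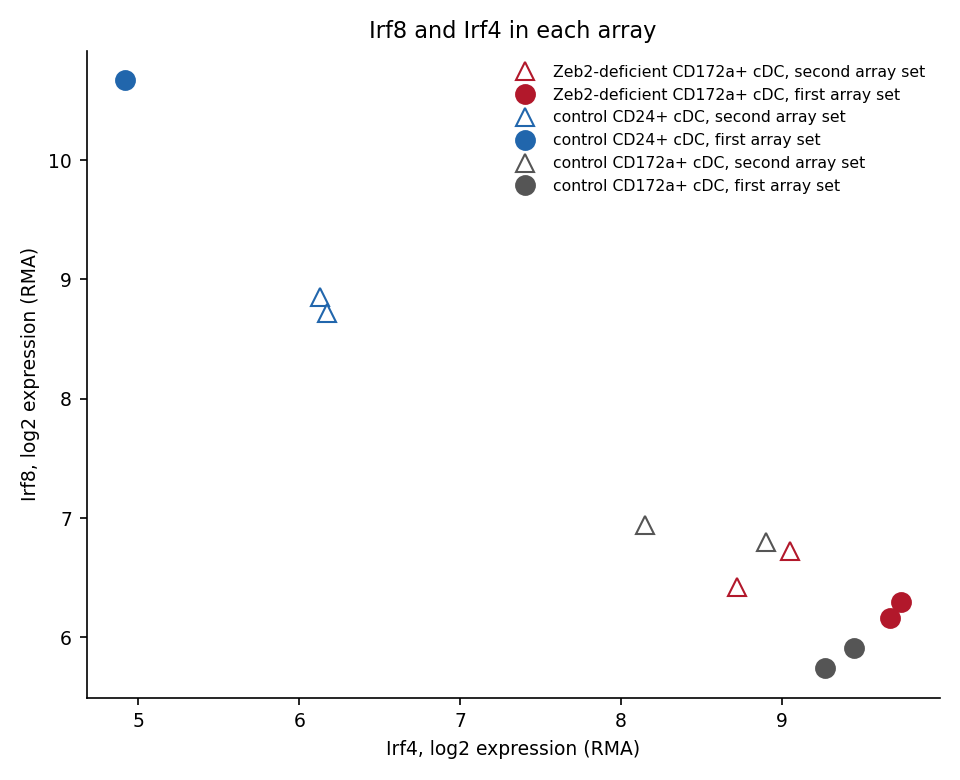
Irf8 against Irf4 in each of the 11 arrays, both as log2 expression (RMA). Colours give the group, filled circles the first and open triangles the second array set. The 3 CD24+ arrays have Irf8 of 8.72 or more and Irf4 of 6.17 or less, and within each subset the arrays of the second set lie nearer to the other subset than those of the first.

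Both genes differed less between subsets in the second array set. In the second set Irf8 averaged 8.78 in control CD24+ against 6.87 in control CD172a+ cDCs, 3.77-fold higher, and in the first set it measured 10.67 on the single CD24+ array against a mean of 5.82 in CD172a+ cDCs, 28.8-fold higher. Irf4 averaged 6.15 in CD24+ against 8.53 in CD172a+ cDCs in the second set, which was 5.21-fold lower, and 4.92 against 9.36 in the first, 21.8-fold lower. The value of 4.92 lay below the array medians of 5.454 to 5.521, so the first-set fold size is uncertain. Within the second set both subset differences passed the limma test, with adjusted p of 0.000883 for Irf8 and 0.00284 for Irf4. With 1 CD24+ array in the first set, the values there are given without a test.

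The change in the subset difference between sets was tested as an interaction in limma, which 131 of 19938 genes passed (0.657%). Irf8's difference was smaller in the second set (interaction of -2.93 ± 0.223 SE, 95% interval -3.42 to -2.44, adjusted p of 0.0015). Irf4's was 2.06 ± 0.335 less negative (95% interval 1.32 to 2.81, adjusted p of 0.0275), and leaving out any 1 of 8 of the 10 arrays that could be left out took its adjusted p to between 0.0534 and 0.136, the exceptions being replicates 3 and 4 of control CD172a+ cDCs. The other 6 members did not pass, with adjusted p from 0.683 to 0.986. The first set held 1 CD24+ array, without which no interaction could be fitted, so the size of both interactions rests on that array. The fit assumes that this array varies like those of the other groups, and the SE and interval hold no CD24+ spread from the first set. The sets were also found from these same arrays, so the p-values describe these arrays and are no independent support for a set effect.

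The direction of the change with the set depended on the subset. In the second set Irf8 was higher by 0.34 in labelled Zeb2-deficient CD172a+ cDCs, lower in control CD24+ cDCs (shift of -1.89) and higher by 1.04 in control CD172a+ cDCs. The shifts of Irf4 in the same groups were -0.82, 1.23 and -0.83. The medians of the subset markers changed by less. The median CD24+ minus CD172a+ difference of the 11 cDC1 markers was 3.40 in the second and 4.30 in the first set, with 8 markers closer in the second, and that of the 10 cDC2 markers was -2.42 and -3.28, with 9 closer. Over all 1278 genes past the subset test, the median absolute difference was 0.97 in the second and 1.03 in the first set. The mean of the cDC1 markers lay between 10.05 and 10.12 in the second set and at 10.51 in the first in control CD24+ cDCs, and between 6.81 and 6.90 and between 6.75 and 6.89 in control CD172a+ cDCs. The mean of the cDC2 markers lay between 5.07 and 5.23 in the second set and at 5.0 in the first in control CD24+ cDCs, and between 7.41 and 7.60 and between 8.06 and 8.10 in control CD172a+ cDCs. Both marker means thus moved with the sets in control CD24+ cDCs, where the first set held 1 array. In control CD172a+ cDCs the cDC2 mean moved, and the cDC1 mean overlapped between the sets. The part of marker levels in the change of Irf8 and Irf4 was not tested.

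**Figure D2:**
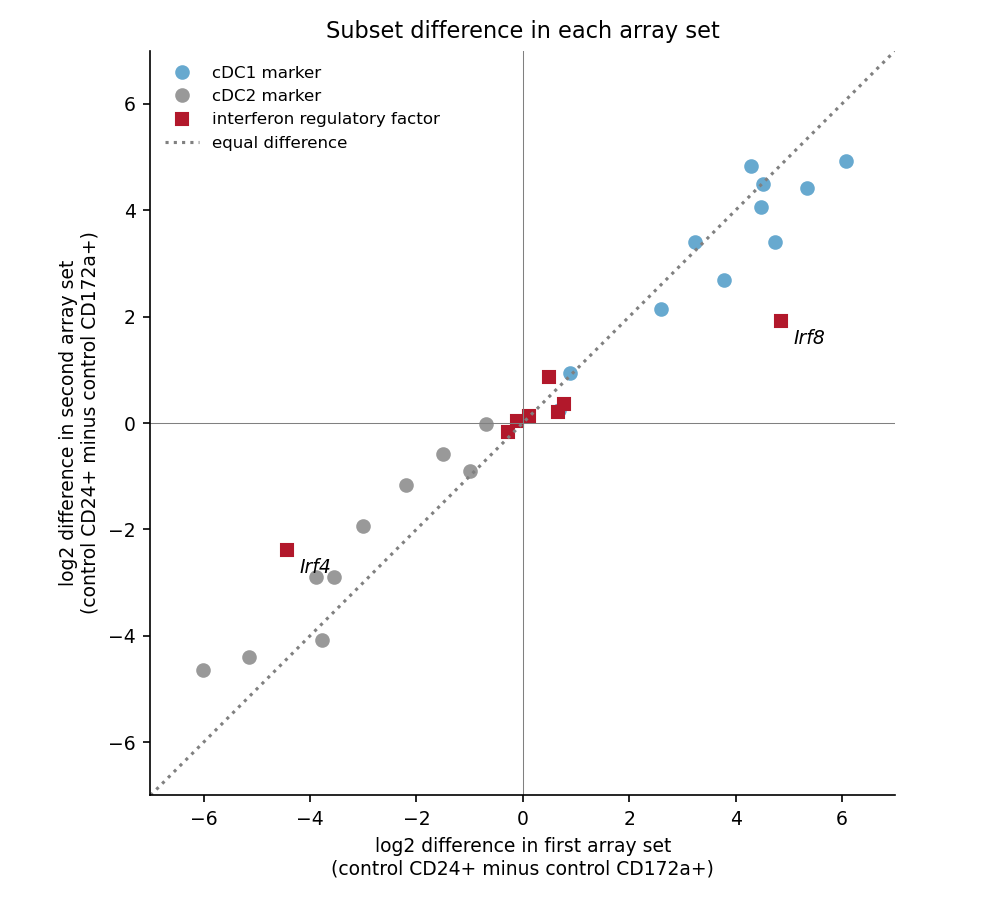
Log2 difference between control CD24+ and control CD172a+ cDCs in the second array set (vertical) against that in the first (horizontal), for 11 cDC1 markers, 10 cDC2 markers and the 8 family genes, with a dotted line of equal difference. Irf8 (1.92 in the second and 4.85 in the first set) and Irf4 (-2.38 and -4.44) lie toward zero from the line by more than most markers do.

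Irf1 activates genes of interferon-gamma signalling and antigen presentation, and Irf2 is known to compete with it at shared elements. Irf1, at chr11:53770014-53778374, measured 7.69, 7.55, 7.02 and 7.45 in labelled Zeb2-deficient CD172a+ cDCs, 8.02, 8.08 and 7.96 in control CD24+ cDCs, and 7.46, 7.58, 7.30 and 6.99 in control CD172a+ cDCs. The CD24+ arrays were closely spaced and above all CD172a+ arrays. Irf1 was 1.61-fold higher in control CD24+ than in control CD172a+ cDCs (difference 0.69 ± 0.171 SE, limma adjusted p of 0.0367). The call was lost on leaving out any 1 of 8 of the 11 arrays, with adjusted p from 0.0524 to 0.131, and held without replicate 2 of control CD172a+ cDCs and without replicates 1 or 3 of the labelled Zeb2-deficient cells. With the set as a block it held, at an adjusted p of 0.00206. A second, dimmer probe set of Irf1 gave a difference of 0.22 between the same groups, with 7.33 ± 0.39 in CD24+ and 7.11 ± 0.21 in CD172a+ cDCs (SD, n = 3 and 4), so both probe sets had the same sign and unequal size.

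Irf2, at chr8:46739745-46847458, averaged 9.01 ± 0.31 in labelled Zeb2-deficient CD172a+ cDCs, 8.92 ± 0.29 in control CD24+ cDCs and 9.03 ± 0.37 in control CD172a+ cDCs (SD, n = 4, 3 and 4). Its subset difference was -0.11 with a 95% interval from -0.61 to 0.39 (limma adjusted p of 0.919). Its spread followed the array sets instead, with every second-set array at 8.83 or less and every first-set array at 9.21 or more.

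Of the members that act downstream of nucleic acid sensors, none passed the subset test with group alone in the fit. Irf5, which acts below Toll-like receptors through MyD88 and lies at chr6:29526130-29541869, came nearest. It measured 8.46, 8.39, 8.06 and 8.28 in labelled Zeb2-deficient CD172a+ cDCs, 9.20, 8.78 and 8.71 in control CD24+ cDCs, and 8.47, 8.39, 8.75 and 8.04 in control CD172a+ cDCs. The CD24+ arrays lay above all CD172a+ arrays but for control replicate 3, at 8.75. The difference between control CD24+ and control CD172a+ cDCs was 0.48 (95% interval 0.10 to 0.87, limma adjusted p of 0.169), and it was 0.52 with an adjusted p of 0.0363 once the array set entered as a block.

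Irf3, the widely expressed factor activated through TBK1 (chr7:44997648-45002848), averaged 7.53 ± 0.27, 7.17 ± 0.36 and 7.5 ± 0.43 in labelled Zeb2-deficient CD172a+, control CD24+ and control CD172a+ cDCs (SD, n = 4, 3 and 4). Irf7, which is itself interferon-induced and amplifies the response (chr7:141263183-141266499), averaged 7.17 ± 0.60, 7.21 ± 0.46 and 6.91 ± 0.22 in the same order of groups. Irf9, the DNA-binding subunit of the interferon-activated complex (chr14:55603985-55610030), averaged 7.39 ± 0.64, 7.18 ± 0.41 and 7.16 ± 0.43. Their subset differences were -0.33 for Irf3 (95% interval -0.87 to 0.21), 0.31 for Irf7 (-0.36 to 0.98) and 0.01 for Irf9 (-0.74 to 0.77), and the smallest limma adjusted p among them was 0.644. In all 3 genes the second-set arrays lay below the first-set arrays of their group, as the plot of all members by array shows.

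**Figure D3:**
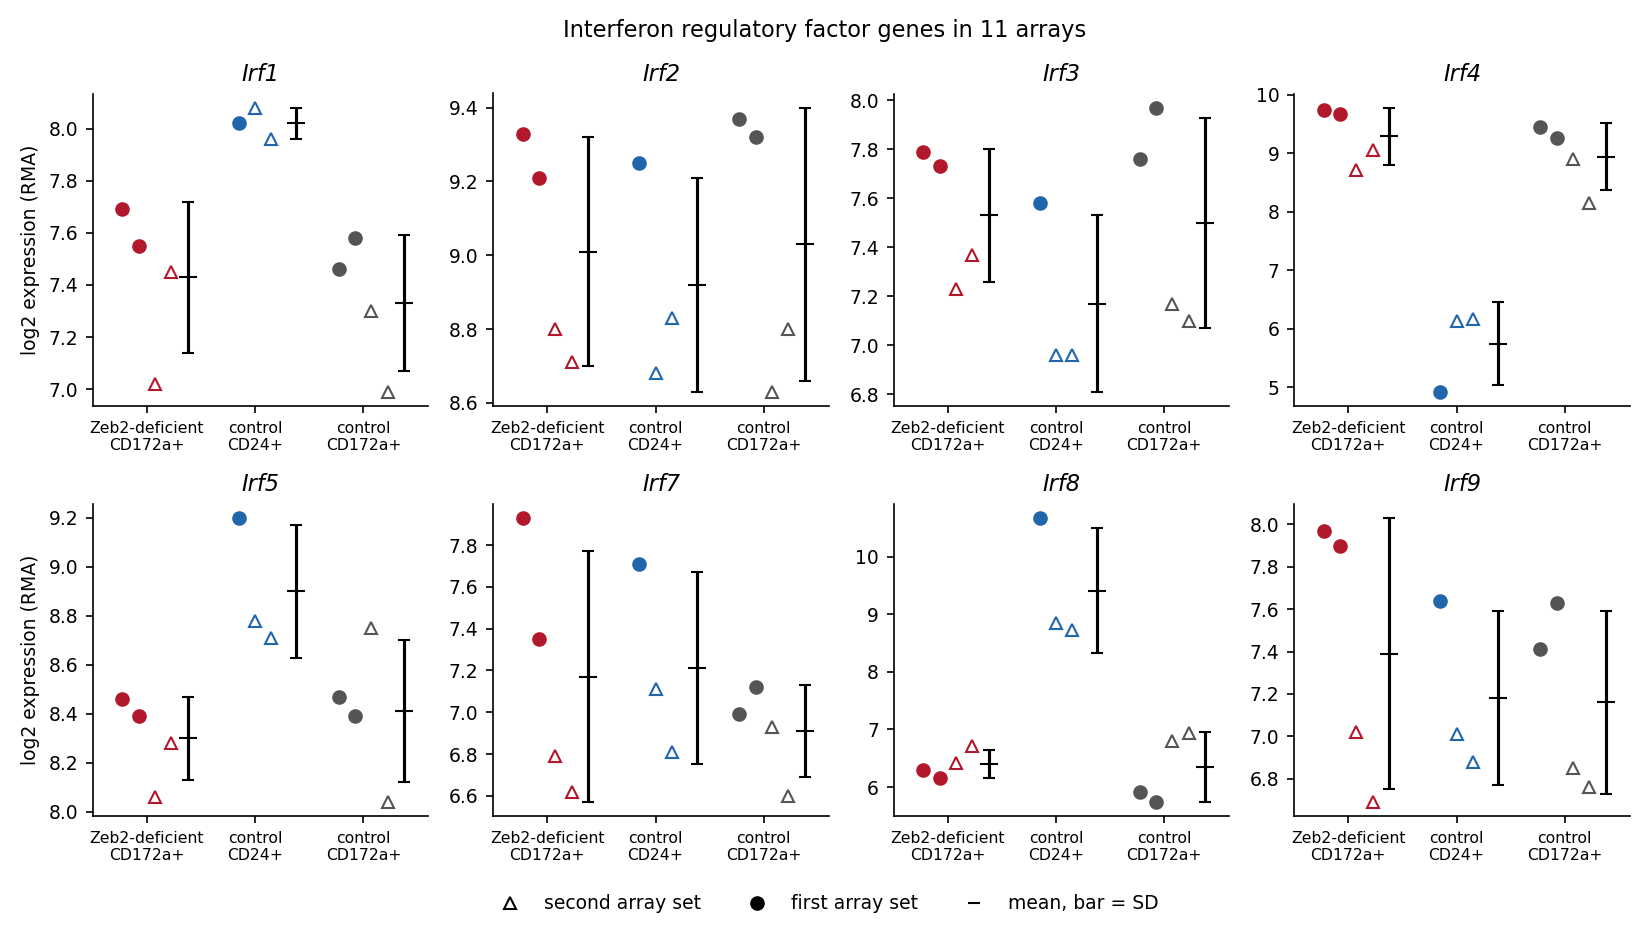
Log2 expression (RMA) of the 8 family genes in the 11 arrays, by group, with filled circles for the first and open triangles for the second array set, and a horizontal tick and bar for the group mean and SD (n = 4, 3 and 4). Each panel has its own scale. Irf8 and Irf4 separate CD24+ from CD172a+ cDCs, Irf1 does so by a smaller step, and in Irf2, Irf3, Irf7 and Irf9 the second-set arrays lie below the first-set arrays of their group.

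Counted together, 2 of the 8 genes (Irf8 and Irf1) were higher and 1 (Irf4) was lower in control CD24+ than in control CD172a+ cDCs, and 5 did not pass. Of all genes, 6.41% passed this test in either direction, 3.25% as higher and 3.16% as lower. The groups did not overlap for 3 members, against 14.6% of all genes. The median difference of the 8 members was 0.16 and that of all genes -0.017. With the set as a block, 4 members passed, Irf5 being the addition, and 15.4% of all genes did.

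The genotype comparison asked whether CD172a+ cDCs of mice with Cre differ from those without. None of the 8 family genes passed in limma, where 0.0502% of all genes did (0.0401% as higher and 0.01% as lower), and none had an unadjusted p under 0.05, which 3.88% of all genes had. Differences between labelled Zeb2-deficient and control CD172a+ cDCs ran from -0.11 for Irf5 to 0.35 for Irf4, every adjusted p was 0.998, and the groups overlapped for all members, whereas 2.10% of all genes did not overlap. The members' median was 0.07 and that of all genes 0.006. For Irf4 the 95% interval reached from -0.45 to 1.14 and for Irf8 (difference 0.05) from -0.86 to 0.97. The intervals were narrower for Irf1 (difference 0.09, -0.25 to 0.44) and Irf5 (-0.47 to 0.25). They ran from -0.48 to 0.45 for Irf2, from -0.47 to 0.53 for Irf3, from -0.36 to 0.89 for Irf7 and from -0.47 to 0.93 for Irf9. Blocking by set, none passed either, with adjusted p from 0.558 to 0.982, and 0.145% of all genes did.

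Read within the sets, 3 members had little difference or a negative one in the second set and a positive one in the first. Irf7 measured 6.79 and 6.62 in the labelled Zeb2-deficient arrays of the second set against 6.93 and 6.6 in the control CD172a+ arrays, and 7.93 and 7.35 against 6.99 and 7.12 in the first set. Its difference was -0.06 in the second and 0.59 in the first set. Irf9 differed by 0.05 and 0.41, and Irf8 by -0.30 and 0.41, in the same order of sets. Irf4 differed by 0.36 and 0.34. In the first set these 4 members had unadjusted p between 0.0162 and 0.0391 in limma, a level under 0.05 that 11.3% of all genes reached there, and none passed after adjustment, with adjusted p from 0.357 to 0.42. In the second set no member had an unadjusted p under 0.05, where 6.95% of all genes did. The interaction of genotype and set passed for 1 gene of all tested (0.00502%) and for none of the 8. For Irf8 it was -0.71 (95% interval -1.15 to -0.27, adjusted p of 0.564) and for Irf7 -0.65 (-1.27 to -0.03, adjusted p of 0.702).

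Set against control CD24+ cDCs, labelled Zeb2-deficient CD172a+ cDCs had higher Irf4 and lower Irf8. This comparison shares the CD24+ arrays with the one between control subsets and is no independent repeat of it. Irf4 was 11.8-fold higher (difference 3.55 ± 0.389 SE, limma adjusted p of 0.000178) and Irf8 was 8.07-fold lower (difference -3.01 ± 0.45 SE, adjusted p of 0.00158) in labelled Zeb2-deficient CD172a+ than in control CD24+ cDCs. These were 1 higher and 1 lower member of 8, where 7.17% of all genes passed in either direction, 3.25% higher and 3.92% lower. The groups did not overlap for 4 members, Irf1 and Irf5 being the other two, against 17.9% of all genes. Irf1 differed by -0.59 (adjusted p of 0.0675) and Irf5 by -0.60 (adjusted p of 0.0732), and both passed once the set entered as a block, at 0.00465 and 0.0116, making 4 of 8 where 18.3% of all genes passed. The plot of differences gives every member in the 3 comparisons.

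**Figure D4:**
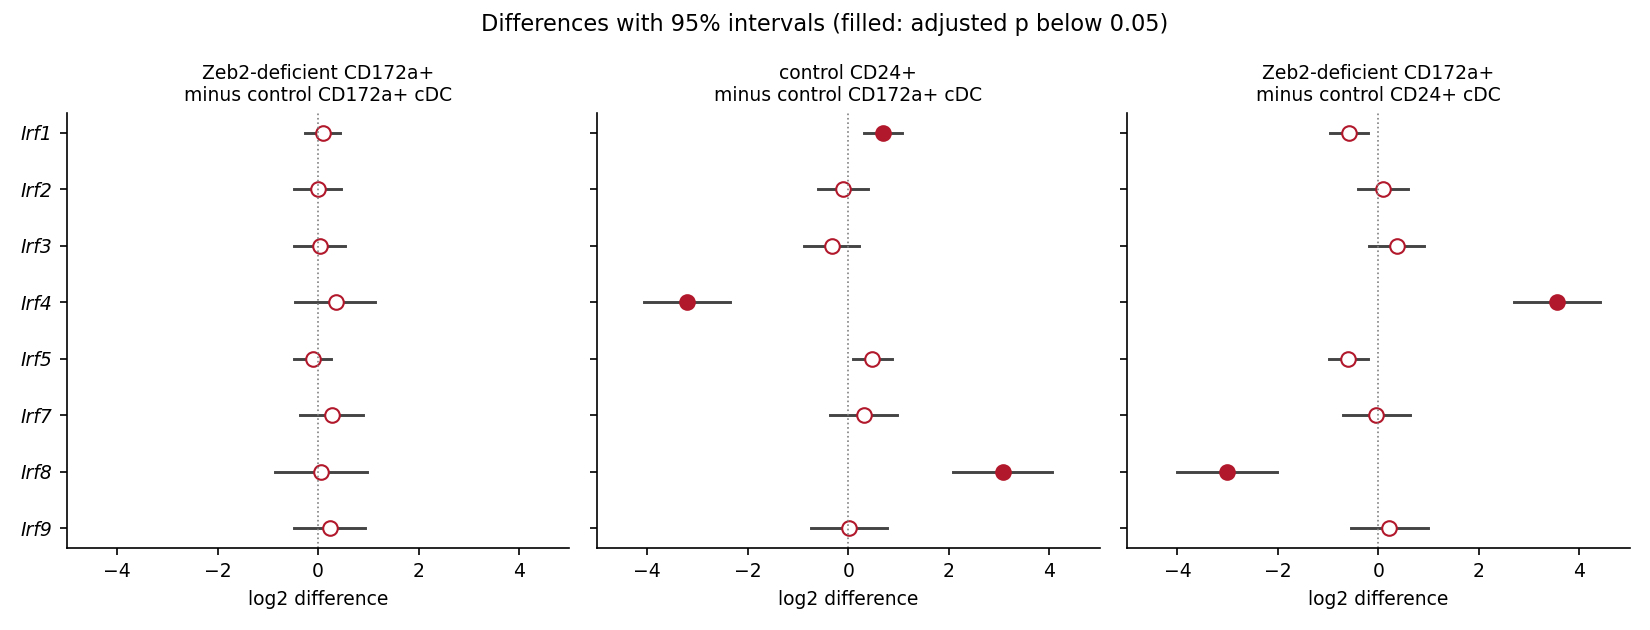
Log2 differences of the 8 family genes in the 3 comparisons, with 95% intervals from limma, filled where the adjusted p is below 0.05. All points of the genotype comparison lie between -0.11 and 0.35, and those past the test in the other comparisons are Irf8 and Irf4 in both and Irf1 between control subsets.

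Many values of the family moved with the array set. The mean was lower in the second than in the first set by at least 0.1 in all 3 groups for 4 of the 8 members (50%), against 16.4% of all genes. Without that margin it was lower for 6 of 8 (75%), against 24.3%. That count includes Irf1, whose CD24+ means in the sets were equal after rounding. Only downward shifts were counted. The sets were found from these same arrays, and the CD24+ shift rests on 1 array in the first set. The shift of Irf9 was -1.09, -0.70 and -0.72 in labelled Zeb2-deficient CD172a+, control CD24+ and control CD172a+ cDCs, and that of Irf7 was -0.94, -0.75 and -0.29. Irf2 shifted by -0.52, -0.49 and -0.63 and Irf3 by -0.46, -0.62 and -0.73. Irf1 shifted by -0.38 in both CD172a+ groups and averaged 8.02 in CD24+ cDCs of both sets, and Irf5 shifted by -0.25, -0.46 and -0.04. Irf8 and Irf4 changed sign between subsets.

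Around the family, genes that partner with it or lie along its pathway were read from lists. Of 21 measured DNA-binding partners and cofactors, none was higher and 3 were lower in control CD24+ than in control CD172a+ cDCs in limma, with a list median of -0.28 against -0.017 for all genes, of which 6.41% passed. With the set as a block 1 was higher and 5 were lower, where 15.4% of all genes passed. Spib, an ETS partner of IRF4 and IRF8, averaged 5.53 in CD24+ and 7.57 in CD172a+ cDCs (difference -2.04, adjusted p of 0.0221). Spi1, which encodes the ETS partner PU.1, averaged 10.02 and 10.21 and did not pass (difference -0.19, limma adjusted p of 0.556). Irf2bp2, a cofactor that binds IRF2, was lower (difference -0.78, adjusted p of 0.0282), as was Ikzf3, a zinc-finger factor of the Ikaros family (-0.72, adjusted p of 0.0162). Batf3, the partner of IRF8 in cDC1 development, averaged 9.22 in labelled Zeb2-deficient CD172a+ cDCs, 9.17 in control CD24+ cDCs and 8.83 in control CD172a+ cDCs. Its subset difference of 0.33 did not pass with group alone in the fit (adjusted p of 0.542). Batf3 is also among the 11 cDC1 markers, and with the set as a block all 11, Batf3 included, passed as higher in CD24+ cDCs.

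Among 23 measured genes of the sensing pathway above IRF3, IRF5 and IRF7, 1 was higher and 5 were lower in control CD24+ cDCs. With the set as a block these were 2 and 8. Of all genes, 6.41% passed in either direction, and 15.4% with the set as a block. The list median was -0.21, against -0.017 for all genes. Tlr3, the endosomal sensor of double-stranded RNA that signals to IRF3 (also among the cDC1 markers), averaged 9.74 in CD24+ and 5.63 in CD172a+ cDCs, 17.4-fold higher (adjusted p of 1.52e-06). Tlr7, the sensor of single-stranded RNA that signals to IRF5 and IRF7, averaged 3.21 in CD24+ and 8.35 in CD172a+ cDCs, 35.3-fold lower (adjusted p of 2.28e-08). Of the genes of RIG-I-like cytosolic RNA sensors, Ddx58, which encodes RIG-I, was 9.03-fold lower (difference -3.18, adjusted p of 0.000121) and Ifih1, which encodes MDA5, 2.0-fold lower (difference -1.0, adjusted p of 0.0167), while Dhx58 differed by -0.31 (adjusted p of 0.873). The adaptor Ticam2 was 3.44-fold lower (difference -1.78, adjusted p of 0.0127). The CD24+ averages of Tlr7 (3.21) and Ddx58 (4.69) lay below the array medians of 5.454 to 5.521. RMA can compress differences of such dim genes, so these fold sizes are uncertain. The subset differences of Irf3, Irf5 and Irf7, the factors these sensors activate, lay between -0.33 and 0.48.

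No gene of 19 measured interferon ligands, receptors and JAK-STAT components passed between control subsets with group alone in the fit. The list median was -0.10, and 6.41% of all genes passed. With the set as a block 3 were higher and 2 lower in CD24+ cDCs, where 15.4% of all genes passed. Against control CD24+ cDCs, labelled Zeb2-deficient CD172a+ cDCs had 2 of the 19 higher and 2 lower in limma, where 7.17% of all genes passed. With the set as a block these were 4 and 3, where 18.3% of all genes passed. Higher were Jak2 (difference 0.63, adjusted p of 0.00484) and Ifnar2 (0.59, adjusted p of 0.0272), a kinase and a receptor chain of the pathway. Lower were Ptpn11 (-0.66, adjusted p of 0.00962) and Tyk2 (-0.85, adjusted p of 0.0281), a phosphatase and a second kinase. Control CD172a+ cDCs lay on the same side of control CD24+ cDCs for each of these genes, without passing. The control CD24+ minus control CD172a+ differences were -0.37 for Jak2, -0.33 for Ifnar2, 0.42 for Ptpn11 and 0.72 for Tyk2.

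Genes driven through ISREs, the targets of the complex with IRF9, were more often lower than higher in control CD24+ cDCs where they passed the test. Of 26 measured, 9 were lower and 1 was higher than in control CD172a+ cDCs in limma, where 6.41% of all genes passed. With the set as a block 11 were lower and 3 higher, where 15.4% of all genes passed. Their median difference was -0.73, and it was -0.27 within the second and -1.02 within the first set. Rtp4 averaged 4.09 in CD24+ and 8.71 in CD172a+ cDCs (24.5-fold lower, adjusted p of 1.37e-06), and Ifit3 averaged 5.05 and 8.85 (14-fold lower, adjusted p of 2.08e-05). Ddx60 was 6.64-fold lower (adjusted p of 0.000815) and Ifit1 4.39-fold lower (adjusted p of 0.000184). The CD24+ averages of Rtp4, Ifit3, Ddx60 and Ifit1 lay below the array medians of 5.454 to 5.521, so these fold sizes are uncertain. Mx1, the gene of an antiviral GTPase, went the other way, averaging 7.5 in CD24+ and 6.10 in CD172a+ cDCs (2.65-fold higher, adjusted p of 0.0337). Ifih1 stands in this list too. Labelled Zeb2-deficient CD172a+ cDCs had 12 of the 26 higher and 1 lower than control CD24+ cDCs, with a median of 1.02. In that comparison 7.17% of all genes passed, and the median of all genes was 0.035.

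Between labelled Zeb2-deficient and control CD172a+ cDCs none of these 26 genes passed. Their median difference was 0.27, against 0.006 over all genes, and it was 0.12 within the second and 0.36 within the first set. The mean of the 26 genes was 6.93 to 7.05 in labelled Zeb2-deficient arrays of the second set, where control CD172a+ arrays had 6.79 to 6.92, and 7.92 to 8.02 against 7.37 to 7.74 in the first set. Marker means of other cell types moved with genotype too. That of 10 plasmacytoid DC markers, of which Bst2 is also among the 26, lay between 6.71 and 6.92 in labelled Zeb2-deficient and between 6.29 and 6.54 in control CD172a+ cDCs, but the median difference of single markers was 0.12 in the second and 0.10 in the first set, with Cox6a2 at 1.80 and 2.39. That of 11 B cell markers lay between 5.71 and 6.10 and between 5.35 and 5.60, with median differences of 0.03 and 0.35. Ms4a1 stood at 2.02 in both sets and Fcer2a at 2.17 and 1.93, but Cd22 at -0.45 and -0.25 and Ebf1 at 0.08 and -0.15. The mean of 8 monocyte markers was lower, between 6.73 and 7.25 in labelled Zeb2-deficient and between 7.30 and 7.96 in control CD172a+ cDCs. The median difference of single monocyte markers was -0.40 in both sets. Lyz2 stood at -1.96 in the second and -1.36 in the first set and Ccr2 at -1.11 and -1.34, but Fcgr1 at 0.12 and 0.02. These markers were singled out after their values were seen, and the part of other cells in the difference of the 26 genes was not tested.

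Of 21 measured targets of IRF1 and interferon-gamma, 3 were higher and 2 lower in control CD24+ than in control CD172a+ cDCs, where 6.41% of all genes passed, with a median of 0.30. With the set as a block 8 were higher and 2 lower, where 15.4% of all genes passed. The higher ones were Tap2 (difference 0.91, adjusted p of 0.00514), a peptide transporter, Psmb8 (1.01, adjusted p of 0.0477), an immunoproteasome subunit, and Il15 (1.63, adjusted p of 0.00576), a cytokine. The lower ones were Cd274, which encodes PD-L1 (-1.99, adjusted p of 0.00199), and the protease gene Casp1 (-1.27, adjusted p of 0.000949). None of the genes in any of the 5 lists passed between labelled Zeb2-deficient and control CD172a+ cDCs. The plot of the lists sets both comparisons side by side.

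**Figure D5:**
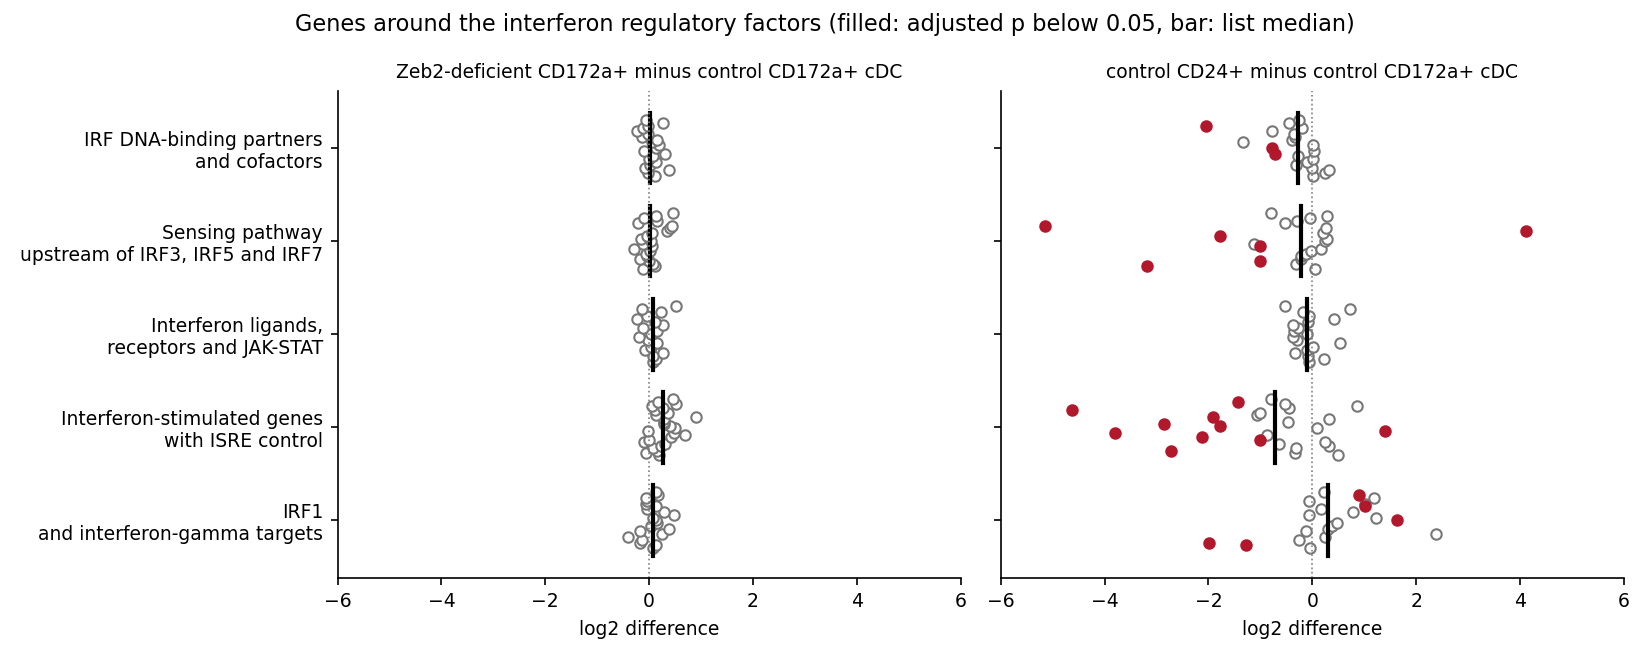
Log2 differences of the measured genes of 5 lists around the family, between labelled Zeb2-deficient and control CD172a+ cDCs (left) and between control CD24+ and control CD172a+ cDCs (right). Each point is a gene, filled where the limma adjusted p is below 0.05, and the bar is the list median. No point is filled on the left, and the filled points on the right include Tlr3 (4.12), Tlr7 (-5.14) and Rtp4 (-4.62).

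Some of these genes changed their subset difference with the array set as Irf8 and Irf4 did. They were named because they passed the interaction test, with sets found from these same arrays. Every first-set difference rests on the same single CD24+ array, so these genes are no independent repeats of the pattern in Irf8 and Irf4. Spib differed by -1.25 in the second and -2.98 in the first set (limma interaction 1.73, adjusted p of 0.0199), Ddx58 by -2.46 and -4.22 (1.75, adjusted p of 0.0103), and Cd274 by -1.30 and -3.17 (1.87, adjusted p of 0.00491). Rsad2, an antiviral interferon-stimulated gene, differed by -0.22 and -2.05 (1.83, adjusted p of 0.00751). The chemokine gene Cxcl9 differed by 1.41 and 3.24 (-1.83, adjusted p of 0.00751), the NF-kB subunit gene Relb by -0.21 and -1.47 (1.26, adjusted p of 0.0435), and Gbp4, a guanylate-binding protein gene, by 1.15 and -1.03 (2.18, adjusted p of 0.0206). Apart from Gbp4, which changed sign, these differences were smaller in the second set.

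The genes whose levels followed each member most closely over the 11 arrays were picked from 4859 genes that ranged over at least 1 log2 unit. These are descriptions of arrays that share groups and array sets. Irf4 ran with Ddx58 (Pearson r of 0.991), Sorl1 (0.987) and Bach1 (0.983), and furthest against Rnf180 (-0.979). Irf8 ran with Srgap2 (0.978), Ctla4 (0.975) and Tlr12 (0.974), and furthest against Cd274 (-0.989). Irf1 ran with Eef1b2 (0.966), Zc3h7a and Atp2c1 and against Dennd11, and Irf5 with Srek1 and Apol7c (0.953 each) and Piezo1 and against Abcg2. Irf2 ran with Hspa1a (0.98), a heat shock chaperone gene, H2aw and Lrrc25 and against Gpd2, and Irf9 with Golph3l (0.971), B4galt3 and Dnajb1 and against Litaf (-0.984). Irf3 ran with Ppp1r21 (0.988), Susd3 and Hes1 and against Sema6d, and Irf7 with Galk2 (0.923), Surf4 and Evl and against Ptpn2.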

How the data were processed

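Expression was measured on Affymetrix mouse arrays, per the labels. The deposited values are log2 expression per probe set, summarised by RMA according to the submitters' processing notes. RMA subtracts background, equalises array distributions and can compress differences of dim genes. No version or build is named in the sources used here. The platform annotation named the probe sets: of 30177, 21789 carried 1 symbol and gave 19938 genes, each read from its brightest probe set. Array medians lay between 5.454 and 5.521. Precision is limited by the number of arrays.

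Groups came from titles. No label says that replicates were separate animals, so p-values cover only the spread of these samples, possibly technical. 1 linear model over 11 arrays was fitted with limma 3.58.1 in R 4.3.3 (8 residual degrees of freedom), two-sided, with Benjamini-Hochberg adjustment over all genes at 0.05. Interactions used group by array set (5 degrees of freedom). The script was tested on simulated data. Figures used matplotlib 3.10.9, with pandas 2.3.3 and numpy 2.4.6 in Python 3.11.15.

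Same-numbered CD172a+ arrays deviated together (r from 0.442 to 0.68 in 4 pairs, all above 0.1), each pair within 1 array set. Other numbers of the same set gave 0.496 to 0.699, so same numbers went together no more closely than the set did. No label gives a pairing.

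The members and lists were chosen with earlier results of these data known. Named genes were the members, the 3 most and 1 least correlated genes of each, and from each list up to 4 genes per direction past the test (up to 2 against CD24+ cDCs of the labelled Zeb2-deficient cells). Batf3, Spi1 and Dhx58 were named outside this rule after their values were seen.

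Alternatives were another probe set or their mean, a filter on low levels, a shift of array medians, a mean-variance trend, the 2 groups alone, blocks by number or set, fits within sets, and leaving out each array.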

Additional observations from a re-analysis of the deposited data

Results flagged for a closer look

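The CD24+ minus CD172a+ difference between control subsets differed between the array sets for Irf8 and for Irf4, by the interaction test in limma. For Irf8 the interaction was -2.93, with differences of 1.92 in the second and 4.85 in the first set. For Irf4 it was 2.06, with differences of -2.38 and -4.44. The sets were found from the same arrays, and 1 CD24+ array makes up that group in the first set. Dixon's criterion for a stray array could be applied to the CD172a+ groups only, so it says nothing of that array.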

How the results depend on the processing

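Across the alternatives, Irf8 and Irf4 kept their direction in both subset comparisons. They kept their calls too, leaving aside the fit within the first set, where the lone CD24+ array has no spread of its own. No member passed between labelled Zeb2-deficient and control CD172a+ cDCs in any alternative. Between those groups 10 genes passed, and 29 did with the set as a block, 5 with only the 2 groups, 0 within the first set (2260 at an unadjusted p under 0.05 in limma) and 7 to 11 on leaving out an array. With the replicate block 11 passed, and 26 with that block on the CD172a+ arrays alone, an alternative chosen after seeing the data. Between control subsets 3080 genes passed with the set block (874 to 1220 without 1 array, with 2 to 3 members), and 3641 between labelled Zeb2-deficient CD172a+ and control CD24+ cDCs, with 4 members (985 to 1533 and 2 to 4 without 1 array, the 4 without control CD172a+ replicate 4).

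The sign turned only for small differences that passed no test. Between labelled Zeb2-deficient and control CD172a+ cDCs, Irf1 was -0.06 with the mean of its probe sets and -0.22 with its other probe set (chosen after seeing the data), Irf3 was -0.11 within the first set, and within the second Irf2 was 0.04, Irf7 -0.06 and Irf8 -0.30. Between control subsets Irf2 was 0.04 within the second set and Irf9 -0.17 with the replicate block. Against control CD24+ cDCs, Irf7 was 0.10 with the replicate block and Irf9 -0.09 within the second set. Leaving out 1 array gave ranges across 0 for Irf1 (-0.02 to 0.23), Irf2 (-0.15 to 0.10), Irf3 (-0.11 to 0.18) and Irf8 (-0.15 to 0.25) by genotype, for Irf2 (-0.27 to 0.0094) and Irf9 (-0.22 to 0.17) between control subsets, and for Irf2 (-0.02 to 0.26) and Irf7 (-0.29 to 0.21) against control CD24+ cDCs. The cause was not tested.

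Irf1's call between control subsets was also lost with a mean-variance trend (0.69, limma adjusted p of 0.0513). Against control CD24+ cDCs, Irf1 gained a call with the replicate block (-0.54, limma adjusted p of 0.048) and within the second set (-0.78, 0.0473). It did so too with the mean of its probe sets (-0.52, 0.0145) and with the level filter (-0.59, 0.0486). Within the first set, with its 1 CD24+ array, Irf1 differed by 0.50 and Irf5 by 0.77 between control subsets. Irf5 differed there by -0.78 against control CD24+ cDCs, and these first-set values are given without a test. For the set by genotype interaction, leaving out 1 array gave 0 to 63 genes, the 63 without control CD172a+ replicate 4, with Irf4 at -0.36 to 0.39 and Irf8 at -0.86 to -0.56. For the set by subset interaction it gave 26 to 290 genes, the 290 without the same array, 1 to 2 members, Irf4 at 1.69 to 2.44 and Irf8 at -3.02 to -2.85.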
